A study of Mus musculus with 34 samples.

Results

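Hearts of mice that had received only the vehicle were compared between 28 and 3 days after the instillation. The labels gave 6 control day 28 arrays and 6 control day 3 arrays, 12 of the 34 arrays of the series. Each array held heart RNA of 1 female C57BL/6 mouse, taken as a random section with both ventricles, labelled with Cy5 and hybridised against a Cy3-labelled reference RNA pooled from many mouse tissues. The mice of both groups had arrived at the age of 5 to 6 weeks and had been given, into the trachea, 40 µl of saline (0.9% NaCl) with 10% cell-free lavage fluid from lungs of other C57BL/6 mice, and then 150 µl of air. Neither group received particles, and neither was left without instillation. The 5 carbon black day 28 and 5 carbon black day 3 hearts, whose mice were given 162 µg of the nanoparticle Printex 90 in that vehicle, were set beside them as hearts of other mice over the same interval. Age at death was not given in the sources used here, so time since the instillation, age and conditions at collection cannot be told apart.

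A value here is a log2 ratio of heart to reference signal, and a difference is the day 28 mean minus the day 3 mean of such ratios, so that 1 stands for a factor of 2 between the groups. In the heart channel, 49.4% to 63.7% of the spots on the 12 arrays stood well above background, and no heart spot was saturated. The tissue carried its label: all 16 cardiomyocyte markers were measured, with mean log2 ratios at day 28 from 0.69 for the transcription factor Gata4 to 6.82 for phospholamban (Pln), the regulator of the calcium pump. The day 28 arrays lay on 6 slides and the day 3 arrays on 6 slides, with 3 slides holding an array of both.

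As background, the heart of a young mouse grows mainly by enlargement of the cardiomyocytes it already has, while cell division and the laying down of matrix decline, and fatty acids are the main fuel of the adult muscle. The liver secretes albumin, apolipoproteins, fibrinogen and complement factors into the blood, and the secretory cells of the airways make secretoglobins and antimicrobial proteins. Neither of these programmes belongs to heart muscle.

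No gene passed the test between vehicle hearts at day 28 and at day 3. Of 19798 genes, 0 had a Benjamini-Hochberg adjusted p under 0.05 in limma (lowest 0.999), which is 0% of those tested. At an unadjusted p under 0.05 there were 877 genes (4.43%), of which 288 were higher (1.45%) and 589 lower (2.98%) at day 28. With the signals that the scanner software had processed, that split was 382 higher and 439 lower, again with 0 genes past the threshold. The median difference over all genes was 0.02, with 54.2% of the genes above 0 and 45.8% below.

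With the processing used here, most genes had narrow intervals. The median standard error of a difference was 0.15, and the 95% interval of 73.6% of the genes lay wholly within a factor of 1.5 in either direction, and that of 93.8% within a factor of 2. The median SD between hearts was 0.23 at day 28 and 0.27 at day 3. The intervals of the other genes reached past a factor of 2. Across the alternatives the median standard error ran from 0.11 with no filter on dim probes to 0.23 with median centring, so the precision depends on the processing. All these intervals are of ratios as processed, in the main fit with an offset of 50. How far that offset narrows the intervals of dim genes was not tested. No gene in the lists described below passed, so the values given for them are values and not calls.

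Large differences lay almost all on one side. There were 129 genes lower by more than 1 on the log2 scale at day 28 (0.652%), and 1 gene higher by that much (0.00505%), the nicotinamide riboside kinase Nmrk2, picked out after its values were seen. Nmrk2, which makes NAD in striated muscle, ran from 3.05 to 5.06 (median 4.06) at day 28 and from 1.67 to 4.16 (median 2.86) at day 3, so the groups overlapped, and the difference was 1.06 ± 0.49, or 0.33 without the arrays of high liver score described next. Of the 129 genes, 56 were not well above background on any day 28 array, and 12 were liver markers and 5 airway markers of the lists below. Without the 3 day 3 arrays that carried most liver transcript, 9 of the 129 remained lower by more than 1.

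**Figure D1:**
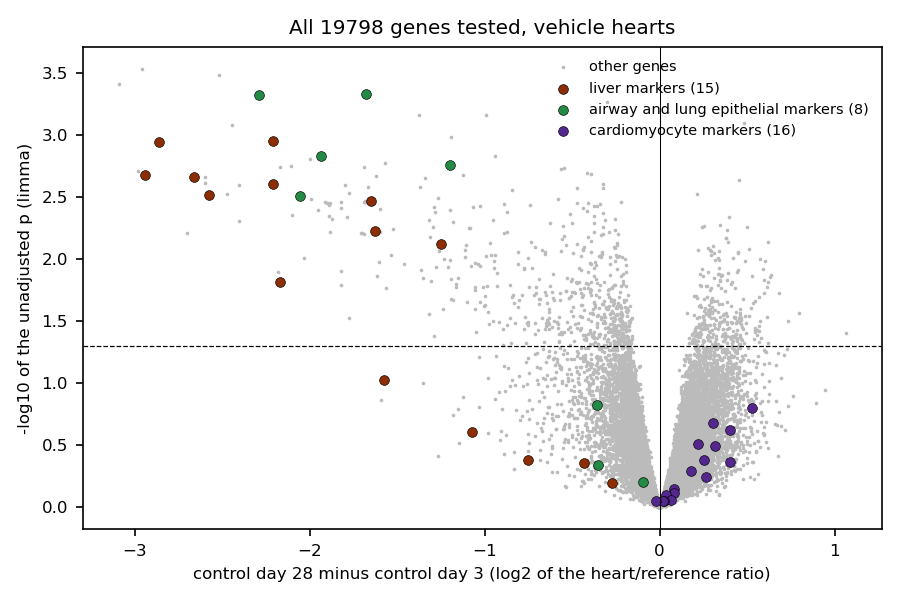
Each point is 1 of the 19798 genes: the x axis gives the difference, control day 28 minus control day 3, in log2 units, and the y axis gives -log10 of the unadjusted limma p, with a dashed line at 0.05. The liver and airway markers spread to the left, down to -2.94 and -2.29, while the cardiomyocyte markers stay between -0.02 and 0.53.

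Liver transcripts were the lowest group at day 28. All 15 liver markers measured, of 18 in the list, had differences below 0 (45.8% of all genes), and 10 of the 15 had an unadjusted p under 0.05 (2.98% of all genes on that side). Their median difference was -1.65. These counts describe the arrays and support nothing, because Fgg, Apoh, Apoa2, Ambp, Apoa1 and Apoc3 were not well above background on any day 28 array and, of these 2 groups, could pass the filter on dim probes only through day 3. With only probes well above background on all arrays, 4 markers remained, with a median of -0.75 and 0 at an unadjusted p under 0.05 in limma. Not all of them are confined to liver: transferrin (Trf, -0.43) and the retinol carrier Rbp4 (-1.07) are also made elsewhere.

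Albumin (Alb), the main plasma protein, shows how the arrays differed. Its log2 ratios at day 28 were 0.13, 0.16, 0.10, 0.01, -0.02 and 0.66 for replicates 1 to 6. At day 3 they were 2.76, 0.02, 0.06, 5.15, 5.28 and 4.94. The ratio was thus near 0 in all day 28 hearts but replicate 6 and in 2 of the 6 day 3 hearts, and high in the other 4. Alb was well above background on only 1 day 28 array and on 4 day 3 arrays, so ratios near 0 are largely background readings. The fitted difference of -2.86 ± 0.80 (SE; limma adjusted p = 0.999, n = 6 each) therefore has no exact size, and the same holds for the other genes below that were dim at day 28.

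The promoter of Alb is shown because it holds sites of factors that act in hepatocytes, not all of them confined to liver. Printed are the 250 bases before its start, from RefSeq on GRCm38.p6, chr5:90460620-90460869, plus strand. Capitals mark GTTAAT, the core of the site of the hepatocyte factor HNF1, and TTATGTAA, a site of C/EBP and PAR bZIP factors, each searched on both strands. Within these 250 bases GTTAAT occurred in 6.52% of 27025 promoters and in 4 of the 14 liver markers matched (Alb, Fgb, Serpina1a and Serpina1b). TTATGTAA occurred in 0.862% of all promoters and in 1 of the 14. The paralogs Serpina1a and Serpina1b were not among the liver markers measured here, and the 4 promoters were not taken as independent.
Alb: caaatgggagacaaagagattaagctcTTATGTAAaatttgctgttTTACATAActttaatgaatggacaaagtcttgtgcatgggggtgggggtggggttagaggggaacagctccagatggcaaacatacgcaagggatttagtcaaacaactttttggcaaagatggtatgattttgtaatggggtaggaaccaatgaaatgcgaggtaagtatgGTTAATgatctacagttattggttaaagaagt

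The secreted liver proteins Fgg, Apoh and Hpx were also highest in day 3 replicates 4, 5 and 6. The fibrinogen chain Fgg ran from -0.12 to 0.13 (median 0.00) at day 28 and from 0.04 to 6.57 (median 2.57) at day 3. It was not well above background on any day 28 array and was so on 4 day 3 arrays. The phospholipid-binding apolipoprotein Apoh ran from -0.16 to 0.15 (median -0.02) at day 28 and from -0.09 to 6.96 (median 2.01) at day 3, and was well above background on the same numbers of arrays. Hemopexin (Hpx), which binds free heme in plasma, ran from -0.40 to 0.02 at day 28 and from -0.20 to 5.79 at day 3, a difference of -2.21 ± 0.62. In each of these 3 genes only day 3 replicate 3 reached into the day 28 range, and replicate 2 lay just above it, at 0.27 for Fgg, 0.18 for Apoh and 0.21 for Hpx.

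Of the 6 named genes of smallest p that were lower at day 28, 3 are liver-rich genes outside the marker list. The paralogs Cyp2a4 and Cyp2a5 encode steroid and coumarin hydroxylases of the liver. Cyp2a4 had log2 ratios of -0.11, 0.03, -0.03, 0.15, 0.04 and 0.02 at day 28. The day 3 hearts had 2.34, 0.00, -0.12, 3.84, 6.23 and 5.54. The 4 high values at day 3 were in the replicates with high Alb, and the groups overlapped through replicates 2 and 3. The difference was -2.96 ± 0.73 for Cyp2a4 and -3.09 ± 0.78 for Cyp2a5, with neither well above background on any day 28 array and both on 4 day 3 arrays. Cyp2a5 was at 3.39 in day 3 replicate 1 and 2.81 in replicate 4. Without day 3 replicates 4, 5 and 6 the differences of Cyp2a4 and Cyp2a5 were -0.72 and -1.10. Without day 3 replicates 1, 5 and 6 they were -1.23 and -0.91.

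The promoters of these 2 genes are shown because the copies are so alike there. They are 249 aligned bases before the start, RefSeq on GRCm38.p6, plus strand, chr7:26306943-26307191 for Cyp2a4 and chr7:26835089-26835337 for Cyp2a5. Capitals mark the 4 bases that differ, so 98.4% of the bases were the same. Promoter bases are not probe targets. Whether the probes of the pair share targets was not tested, so their values were not taken as independent.
Cyp2a4: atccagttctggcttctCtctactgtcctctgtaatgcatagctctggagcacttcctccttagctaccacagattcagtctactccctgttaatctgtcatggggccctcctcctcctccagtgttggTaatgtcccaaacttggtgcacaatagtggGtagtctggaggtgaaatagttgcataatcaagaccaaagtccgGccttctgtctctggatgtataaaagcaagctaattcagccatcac
Cyp2a5: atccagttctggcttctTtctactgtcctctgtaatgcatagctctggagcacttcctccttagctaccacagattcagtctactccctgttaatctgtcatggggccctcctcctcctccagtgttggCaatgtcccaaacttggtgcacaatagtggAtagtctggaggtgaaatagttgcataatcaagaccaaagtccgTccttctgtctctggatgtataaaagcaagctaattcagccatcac

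Complement component C5 (Hc), the source of the anaphylatoxin C5a, had log2 ratios of 0.18, -0.26, -0.07, 0.02, -0.03 and 0.13 at day 28. Its day 3 values were 4.90, 0.03, 0.14, 1.58, 5.38 and 3.06. It was highest in day 3 replicates 1 and 5, whereas Alb was highest in replicates 4, 5 and 6. It was well above background on 1 day 28 and 5 day 3 arrays. The difference was -2.52 ± 0.62 over all arrays and -0.59 without day 3 replicates 1, 5 and 6.

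Airway transcripts were the second such group. Of 16 airway and lung epithelial markers 8 were measured, and 8 of 8 had differences below 0 (45.8% of all genes), with a median of -1.44. At an unadjusted p under 0.05 in limma there were 5 (2.98% of all genes on that side). These counts, too, support nothing, because Bpifa1, Reg3g and Sftpc were not well above background on any day 28 array. With only probes well above background on all arrays, 2 markers remained, with a median of -0.23 and 0 at an unadjusted p under 0.05 in limma. The keratins Krt8 (-0.10) and Krt18 (-0.36) of that list also belong to the mesothelium, and surfactant protein C (Sftpc), the marker of alveolar type 2 cells, was well above background on only 1 day 3 array. The secretoglobin Scgb1a1, the main secreted protein of club cells, had log2 ratios of 0.32, 0.26, 0.13, 0.03, 0.17 and 0.23 at day 28. In day 3 hearts it was at 5.84, 0.11, 0.14, 0.28, 2.88 and 3.50. The high arrays were day 3 replicates 1, 5 and 6, and the groups overlapped.

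Scgb3a1, a secretoglobin of larger airways, had log2 ratios of 0.65, 0.68, 0.65, 0.48, 0.24 and 1.03 at day 28. Day 3 values were 4.202, 0.91, 1.02, 0.30, 3.46 and 3.91. Replicates 1, 5 and 6 at day 3 were above every day 28 heart, and replicates 2, 3 and 4 at day 3 were within the day 28 range. The difference was -1.68 ± 0.43, and -0.12 without day 3 replicates 1, 5 and 6. Bpifa1, an antimicrobial protein of the airway lining, had -0.03, 0.09, -0.03, 0.06, 0.05 and 0.23 at day 28. At day 3 it had 4.74, 0.07, 0.42, 0.02, 4.07 and 4.78. The difference was -2.29 ± 0.59 over all arrays and -0.11 without day 3 replicates 1, 5 and 6. The antimicrobial lectin Reg3g was well above background on 3 day 3 arrays and no day 28 array, and the iron-binding protein lactoferrin (Ltf), found in neutrophil granules and in secretions, on 4 day 3 arrays and no day 28 array. Ltf had its highest day 3 value, 4.24, in replicate 6, and the alarmin S100a8, of the same neutrophil list, was at -0.03.

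Scores summarise these markers for each heart. A score averages the log2 ratios of a list's markers in 1 heart after each marker's median over all 34 arrays has been subtracted. The liver score was -0.36, -1.15, -0.26, -0.18, -0.26 and 0.22 in the day 28 hearts. In the day 3 hearts it was 0.45, -0.21, -0.57, 1.82, 4.09 and 2.90. The airway score ran from -0.29 to 0.18 at day 28, and was 2.61, -0.07, -0.09, 0.05, 2.07 and 2.51 in day 3 replicates 1 to 6. Day 3 replicates 5 and 6 were thus high in both, replicate 1 in airway and replicate 4 in liver transcript. In the bulk RNA of a section, fewer cells of a type and less RNA per cell cannot be told apart.

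**Figure D2:**
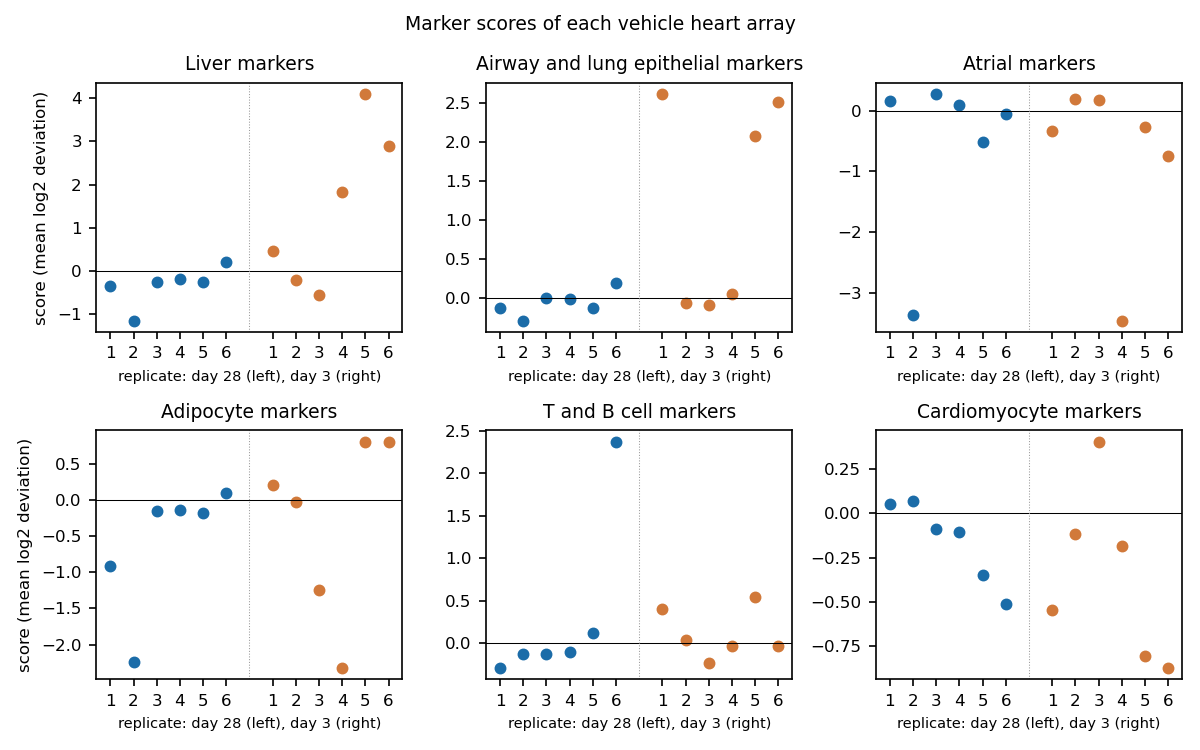
Points are scores of single vehicle heart arrays (y axis, mean log2 deviation from the median of all 34 arrays), with the 6 control day 28 replicates left and the 6 control day 3 replicates right of the dotted line. Liver scores reach 4.09 and airway scores 2.61 at day 3, against at most 0.22 and 0.18 at day 28, while single arrays stand low in atrial and high in T and B cell markers.

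The arrays concerned were also left out. They were picked by scores of these same markers, so smaller liver and airway medians were bound to follow and test nothing. Without day 3 replicates 4, 5 and 6 the liver median was -0.22 with 11 of 15 members below 0 and 0 at an unadjusted p under 0.05 in limma, and 298 of all genes were at an unadjusted p under 0.05 in place of 877. Without day 3 replicates 1, 5 and 6 the airway median was -0.02, with 4 of 8 members below 0. Within the 3 slides that held both groups, the liver median was -0.31, -5.09 and -3.52, and the airway median was -0.15, -2.20 and -3.07, the last 2 of each involving day 3 replicates 5 and 6. The part of liver or airway RNA in results for other genes was not tested beyond these values. Values without the arrays of high liver score are given below for some groups and genes only, and a value given without one may also change.

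Vehicle hearts were not the only ones with liver transcript. The liver score ran from -0.79 to 0.26 in carbon black day 28 hearts and from -0.04 to 2.24 in carbon black day 3 hearts, and the median difference of the 15 liver markers was -1.05 there. The airway score ran from -0.17 to 0.31 in carbon black day 28 hearts and from -0.23 to 0.61 in carbon black day 3 hearts, and the airway median was -0.09.

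The 6 named genes of smallest p that were higher at day 28 had small differences. They belong to no common list. Fam13b, a protein with a RhoGAP domain, had log2 ratios of -0.60, -0.40, -0.68, 0.20, -0.37 and -0.14 at day 28. Its day 3 values were -0.89, -0.58, -0.60, -0.74, -0.43 and -1.12. The ranges overlapped, and the difference was 0.40 ± 0.13, or 0.36 without the arrays of high liver score. It was well above background on 5 day 28 and 3 day 3 arrays.

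Cenpj, a centriole assembly protein, had -0.34, -0.60, -0.44, -0.79, -0.56 and -0.50 at day 28. In day 3 hearts it was at -0.98, -0.62, -0.67, -1.15, -0.79 and -1.09, so that the ranges overlapped and the difference was 0.34 ± 0.11, or 0.22 without the arrays of high liver score. Dhx57, a putative RNA helicase, had -0.74, -0.70, -0.72, -0.83, -0.72 and 0.01 at day 28. Day 3 values were -1.61, -0.58, -0.79, -1.36, -0.77 and -1.59. Day 28 replicate 6 and day 3 replicates 1, 4 and 6 set this difference of 0.50 ± 0.17 apart, and the other hearts lay together. It was 0.37 without the arrays of high liver score.

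Bcas2, a core component of the splicing machinery, had -0.42, -0.45, -0.79, -0.59, -0.51 and -0.35 at day 28. The day 3 hearts had -0.86, -0.62, -0.62, -1.48, -0.59 and -1.22. The low values were in day 3 replicates 4 and 6, which were among the arrays of high liver score, and the difference was 0.38 ± 0.13 with them and 0.18 without the 3 such arrays. Ostm1, a partner of the lysosomal chloride transporter, had 0.43, 0.31, 0.51, 0.33, 0.27 and 0.49 at day 28. At day 3 it had 0.19, 0.34, 0.29, -0.47, 0.03 and -0.37, again lowest in replicates 4 and 6. Its difference was 0.39 ± 0.14 with and 0.12 without the 3 arrays.

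Cmas, which activates sialic acid for glycan synthesis, had 0.14, 0.18, 0.14, -0.43, -0.35 and -0.24 at day 28. In day 3 hearts it was at -1.17, -0.48, -0.20, -0.51, -0.65 and -0.62, and the ranges overlapped. Its difference was 0.51 ± 0.18 with and 0.52 without the arrays of high liver score, and 0.31 without those of high airway score. Within the 3 shared slides it was 0.66, 0.30 and 0.38.

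Deaf1, a transcription factor, was the only one of the 6 lower genes that is not rich in liver or airway. It had -0.09, -0.55, -0.22, -0.11, -0.19 and -0.19 at day 28. Day 3 values were 0.20, -0.11, 0.02, 0.11, 0.06 and 0.16, and only 1 day 3 heart reached into the day 28 range. The difference was -0.30 ± 0.08 over all arrays, -0.27 without the arrays of high liver score, and -0.45, -0.25 and -0.35 within the 3 shared slides. Each of the 12 genes had a limma adjusted p of 0.999.

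**Figure D3:**
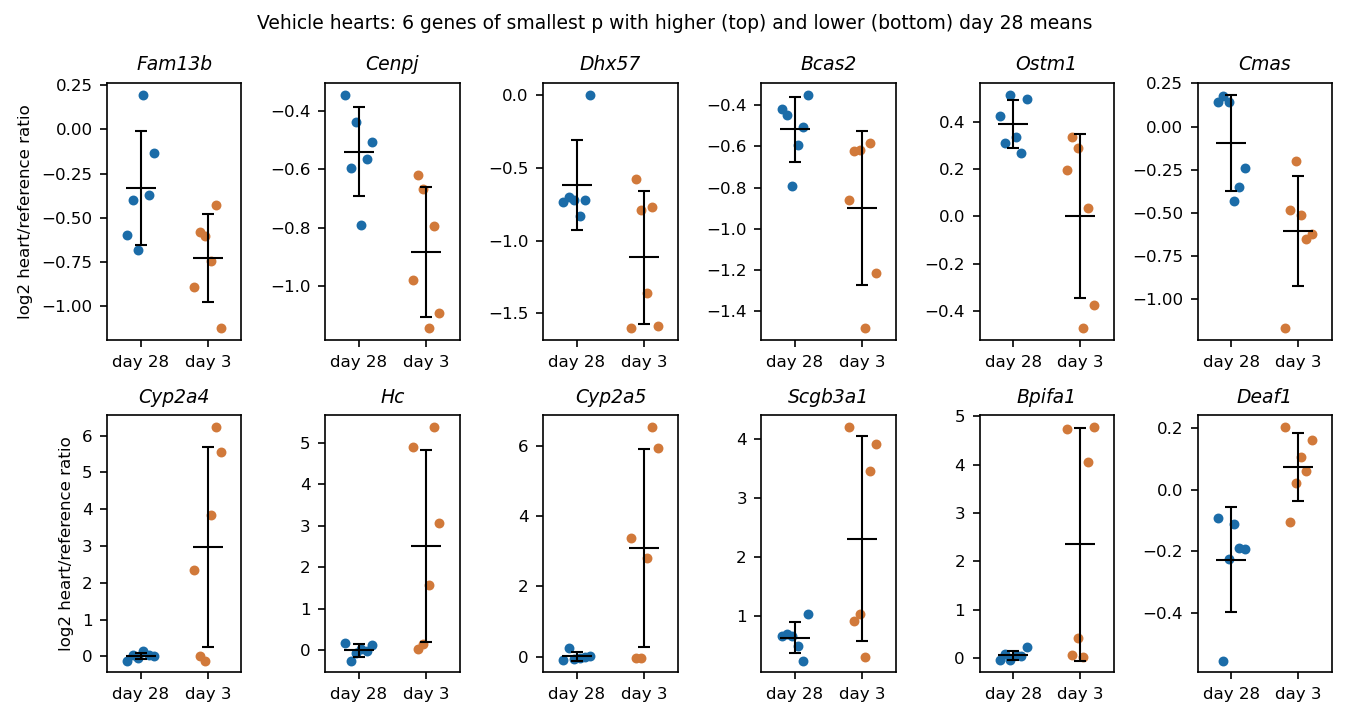
Each panel plots 1 gene, with the log2 heart/reference ratio of each of the 6 control day 28 arrays (left) and 6 control day 3 arrays (right), and the mean with its SD as bars. The upper genes differ by 0.34 to 0.51 with overlapping groups. In the lower row, Deaf1 aside, 2 to 3 of the day 3 arrays lie with the day 28 arrays and the rest far above.

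Groups that did not overlap at all were rare. All 6 day 28 hearts lay above all 6 day 3 hearts in 3 genes (0.0152% of those tested), none with a gene name, and below them in 8 genes (0.0404%), of which 3 had a name. These 3 were picked out after their values were seen. Protein kinase D1 (Prkd1), a kinase of cardiac remodelling, ran from -0.18 to -0.01 at day 28 and from 0.07 to 0.95 at day 3, a difference of -0.42 ± 0.13. The E3 ubiquitin ligase Peli2, which acts in Toll-like receptor signalling, ran from 0.17 to 0.37 at day 28 and from 0.41 to 1.08 at day 3, with -0.38 ± 0.13. The hydrolase Serhl ran from -0.04 to 0.20 at day 28 and from 0.21 to 0.62 at day 3, with -0.31 ± 0.10. For all 3 the highest or next highest day 3 value was in replicate 6, and the differences without the arrays of high liver score were -0.24, -0.25 and -0.31.

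Heart muscle genes had slightly higher means at day 28. Of the 16 cardiomyocyte markers, 15 were above 0, against 54.2% of all genes, with a median of 0.20. In limma 0 passed and 0 were at an unadjusted p under 0.05. Cardiac troponin I (Tnni3) ran from 5.73 to 6.69 (median 5.91) at day 28 and from 4.19 to 6.46 (median 5.59) at day 3, a difference of 0.53 ± 0.36. The ventricular light chain Myl3 differed by 0.40 ± 0.34, cardiac actin (Actc1) by 0.31 ± 0.24 and the transcription factor Nkx2-5 by 0.22 ± 0.21. Day 3 hearts spread more widely than day 28 hearts in these 4 genes, with SDs of 0.54 to 0.88 against 0.23 to 0.44.

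The sign of that list differed with the arrays used. Without the arrays of high liver score 12 of the 16 markers were below 0, with a median of -0.09. Within the 3 shared slides the median was 0.20, 0.20 and 0.36, and with the slide as a fixed block it was 0.24. Tnni3 was at -0.09, Actc1 at -0.04 and Myl3 at -0.03 without the arrays of high liver score. Leaving out the arrays of high airway score gave a median of -0.21 with 13 of 16 below 0. The 95% interval lay within a factor of 2 for 12 of the 16 markers with all arrays. Troponin T (Tnnt2) was bounded between -0.33 and 0.37, troponin C (Tnnc1) between -0.26 and 0.34, and myoglobin (Mb), the oxygen store of muscle, between -0.30 and 0.34.

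**Figure D4:**
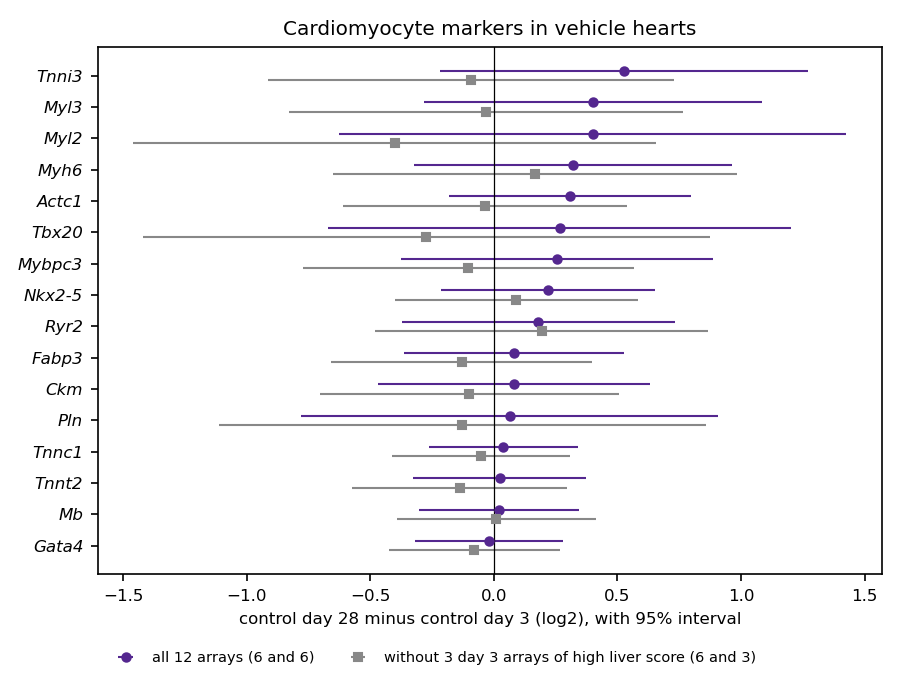
For each of the 16 cardiomyocyte markers the x axis gives the difference, control day 28 minus control day 3 (log2), with its 95% interval, for all 12 arrays (circles) and without 3 day 3 arrays (squares). With all arrays 15 of 16 are above 0 and without them 4 of 16 are, and all intervals include 0.

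The wider muscle lists had the same sign. For sarcomere genes the median was 0.10, 25 of 31 being above 0, and -0.09 without the arrays of high liver score. Calcium handling and ion channel genes had a median of 0.11 with 24 of 31 above 0, and -0.11 without the arrays of high liver score. Natriuretic peptide and cardiac stress genes had a median of 0.13 with 11 of 15 above 0, and -0.08 with 6 of 15 above 0 without the arrays of high liver score. The B-type natriuretic peptide Nppb, released by stretched ventricles, ran from 5.43 to 6.25 at day 28 and from 4.66 to 5.58 at day 3, a difference of 0.73 ± 0.50, and 0.92 ± 0.55 in carbon black hearts. The mechanosensitive repressor Ankrd1 differed by 0.52 ± 0.34, by 0.09 without the arrays of high liver score and by 0.10 without those of high airway score. None of these lists held a gene at an unadjusted p under 0.05.

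Atrial and adipocyte transcript differed between hearts of the same group. The atrial score was -3.38 in day 28 replicate 2 and -3.46 in day 3 replicate 4, and at least -0.75 in the other 10 vehicle hearts, so each group held 1 heart with little atrial transcript. The atrial natriuretic peptide Nppa nevertheless ran from 4.68 to 5.19 at day 28 and from 4.36 to 5.38 at day 3. Adipocyte markers had a median of -0.17 with 14 of 16 below 0, and of 0.42 with 12 of 16 above 0 without the arrays of high airway score, and their scores ran from -2.24 to 0.09 at day 28 and from -2.32 to 0.81 at day 3. The brown fat protein Ucp1 ran from 0.01 to 5.71 at day 28 and from 0.06 to 6.85 at day 3, so that hearts with and without it were in both groups.

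Fuel genes had lower means at day 28. Genes of mitochondrial fatty acid oxidation lay at a median of -0.25, 27 of 35 being below 0, against 45.8% of all genes. At an unadjusted p under 0.05 in limma 3 were lower, against 2.98% of all genes. Enoyl-CoA hydratase (Echs1), an enzyme of the beta-oxidation cycle, ran from 1.71 to 2.34 (median 1.95) at day 28 and from 2.05 to 3.04 (median 2.43) at day 3, a difference of -0.47 ± 0.15. The isomerase Eci1 differed by -0.63 ± 0.27, the short-chain dehydrogenase Acads by -0.63 ± 0.29 and the electron carrier subunit Etfb by -0.32 ± 0.16. With the arrays of high liver score left out, the median was -0.10, with 25 of 35 below 0 and 0 at an unadjusted p under 0.05 in limma. Echs1 was then at -0.23, Eci1 at -0.31, Acads at -0.32 and Etfb at -0.24. Within the 3 shared slides the list's median was 0.71, -0.08 and -0.92, so the sign did not hold from slide to slide. In carbon black hearts that median was 0.05.

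Cholesterol synthesis and uptake genes had a median of -0.26, with 24 of 27 below 0, against 45.8% of all genes. At an unadjusted p under 0.05 in limma 5 were lower, against 2.98% of all genes. Squalene synthase (Fdft1) ran from -1.37 to -0.26 (median -1.10) at day 28 and from -0.98 to 0.75 (median -0.28) at day 3, a difference of -0.71 ± 0.25. Farnesyl diphosphate synthase (Fdps), an earlier enzyme of the pathway, differed by -0.32 ± 0.14. Without the arrays of high liver score the list's median was 0.00, with 13 of 27 below 0, and Fdft1 was at -0.20 and Fdps at -0.09. The list's score was 0.17, 0.11, -0.28, -0.21, 1.19 and 0.78 in day 3 replicates 1 to 6, and ran from -0.28 to 0.56 at day 28. As background, liver is rich in these enzymes, but the part of liver RNA in these values was not tested.

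Other metabolic lists lay near 0. Glucose uptake and glycolysis genes had a median of -0.02 and respiratory chain subunits a median of -0.08, with 36 of 58 below 0. Atp5g3, a subunit of the ATP synthase ring, was at 0.70 ± 0.40, and at 0.35 without the arrays of high liver score. Of the 58 subunits, 56 had an interval within a factor of 2. Without the arrays of high airway score the subunits' median was -0.28, with 49 of 58 below 0, and Atp5g3 was at -0.26. Core clock genes had a median of -0.09 with 13 of 18 below 0, led by the clock output factor Tef at -0.55 ± 0.28, with day 28 values from -0.61 to 1.54 and day 3 values from -0.22 to 1.37. Leaving out the arrays of high liver score put Tef at -0.03 and the clock median at -0.01. Glucocorticoid-responsive genes had a median of 0.00.

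Matrix genes had differences close to or below 0. As background, basement membranes wrap each cardiomyocyte and capillary, and fibrillar collagen ties the muscle together. Basement membrane collagens, laminins and nidogens had a median of -0.15, with 12 of 14 below 0 and 0 at an unadjusted p under 0.05 in limma. The laminin chain Lamb1 ran from -0.18 to 0.40 at day 28 and from 0.01 to 0.79 at day 3, a difference of -0.29 ± 0.15. The type IV collagen chains Col4a1 and Col4a2 differed by -0.29 ± 0.16 and -0.25 ± 0.14. The median was -0.23 without the arrays of high liver score, with 14 of 14 below 0, although Lamb1 was then at -0.13. With the slide as a fixed block the median was -0.13, and with median centring -0.11, each with 10 of 14 below 0. The list's median was -0.28, -0.26 and -0.28 within the 3 shared slides, and -0.22 in carbon black hearts. Lamb1 was at -0.46 ± 0.16 in carbon black hearts, Col4a1 at -0.26 ± 0.18 and Col4a2 at -0.23 ± 0.16.

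Fibrillar collagens and matrix assembly genes had a median of -0.02, with 24 of 45 below 0. The collagen-binding glycoprotein Sparc, which also binds basement membrane collagen, ran from -0.51 to -0.02 at day 28 and from -0.24 to 0.35 at day 3, a difference of -0.28 ± 0.14, and was at -0.39 ± 0.15 in carbon black hearts. The prolyl hydroxylase subunit P4ha1, which hydroxylates procollagen, differed by 0.32 ± 0.15. With the arrays of high liver score left out, the median was -0.13 with 35 of 45 below 0.

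Growth and division genes were close to 0. Cell cycle and mitosis genes had a median of 0.03 with 26 of 43 above 0, and the interval of all 43 lay within a factor of 2. The replicative helicase subunit Mcm4 differed by 0.27 ± 0.15 and the sliding clamp Pcna by 0.17 ± 0.10. These 2 genes were at 0.12 and 0.06 without the arrays of high liver score. Imprinted and fetal growth genes had a median of 0.04, and all 13 had an interval within a factor of 2. Growth factor, IGF and thyroid response genes had a median of 0.06. The IGF-binding protein Igfbp2 ran from -3.50 to -2.29 at day 28 and from -2.96 to 0.05 at day 3, with the highest value in day 3 replicate 5, the heart of highest liver score. The thyroid hormone deiodinase Dio1, an enzyme of liver and kidney, was well above background on 4 day 3 arrays and no day 28 array, with its highest value, 3.00, in that same heart. Without the arrays of high liver score Igfbp2 was at -0.13 and Dio1 at -0.08.

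Protein-making genes had small positive medians. Cytosolic ribosomal proteins had a median of 0.08 with 33 of 42 above 0, and Rpl3 ran from -1.95 to -1.30 at day 28 and from -2.99 to -1.84 at day 3, a difference of 0.63 ± 0.24. Rpl4 differed by 0.32 ± 0.16. Rpl3 was at 0.64 without the arrays of high liver score and at 0.15, 0.70 and 0.69 within the 3 shared slides, and at -0.15 ± 0.27 in carbon black hearts. The median of the ribosomal list was -0.50, 0.09 and 0.49 within those slides, so its sign did not hold from slide to slide. In carbon black hearts that median was -0.05. Of the cytosolic chaperones, Hspa4l differed by 0.34 ± 0.13 and Hsph1 by 0.43 ± 0.20, with a list median of 0.12. Leaving out the arrays of high liver score put Hsph1 at 0.10 and that median at 0.05, and leaving out those of high airway score put the median at -0.05. Immediate early genes, which respond within minutes to handling and stress, had a median of 0.09 with 18 of 23 above 0, against 54.2% of all genes. Of them Ier5 was the 1 gene at an unadjusted p under 0.05 in limma (1.45% of all genes on that side), at 0.43 ± 0.19. The median of the immediate early genes was 0.25 without the arrays of high liver score and -0.20 in carbon black hearts.

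Inflammatory genes gave small medians of both signs. Acute phase and complement genes had a median of -0.29 with 21 of 25 below 0, against 45.8% of all genes. At an unadjusted p under 0.05 in limma 5 were lower, against 2.98% of all genes, among them the liver genes Hpx and Fgg. The median was -0.09 without the arrays of high liver score and 0.02 without those of high airway score. Chemokines and inflammatory cytokines had a median of 0.14 with 27 of 33 above 0 and none at an unadjusted p under 0.05. Interleukin-1 beta (Il1b) ran from -0.20 to 0.85 at day 28 and from -0.20 to 0.59 at day 3, a difference of 0.29 ± 0.18. Interferon-stimulated and class I genes had a median of 0.07, with the antiviral Oasl2 at 0.37 ± 0.21, and 31 of 33 had an interval within a factor of 2.

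Macrophage and lymphocyte markers had medians above 0, and the 6 neutrophil markers measured, of 13, had a median of -0.09 with 5 below 0. Macrophage and monocyte markers had a median of 0.16 with 15 of 17 above 0, and the Fc receptor Fcgr3 differed by 0.43 ± 0.25. With the arrays of high liver score left out, that median was -0.08 with 6 of 17 above 0, and Fcgr3 was at 0.00. The median of T and B cell markers was 0.20, 12 of 13 being above 0, and that of MHC class II presentation genes was 0.13, 8 of 8 being above 0. Day 28 replicate 6 stood apart in both, with scores of 2.37 and 2.16. In the other 5 day 28 hearts the T and B cell score was at most 0.12, and it ran from -0.23 to 0.54 at day 3. The lysosomal protease Ctss, which trims the class II chaperone, was 1.43 in that heart and between -1.22 and -0.67 in the other 5 day 28 hearts. It ran from -1.49 to -0.74 at day 3. Within the slide that held replicate 6 of both days the T and B cell median was 2.08 and the class II median 2.39, and within the other 2 shared slides both were below 0.

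The remaining lists gave values on both sides of 0. Unfolded protein response genes had a median of 0.13 with 17 of 23 above 0, and Nrf2 targets and antioxidant genes a median of -0.01 with 16 of 35 above 0. Targets of the aryl hydrocarbon receptor had a median of -0.10 with 8 of 13 below 0, and proteasome and ubiquitin ligase genes a median of -0.05 with all 30 intervals within a factor of 2. Among p53 targets, with a median of 0.06, the cyclin Ccng1 was at 0.41 ± 0.19, and at 0.15 without the arrays of high liver score. Among vascular signalling genes, with a median of 0.01, the Notch target Hey1 was at 0.74 ± 0.33, and at 0.17 without the arrays of high liver score.

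Markers of the other cells of a heart section also had medians near 0. They were 0.02 for fibroblasts, -0.03 for endothelium, -0.06 for smooth muscle and pericytes, 0.17 for red cells, 0.15 for mesothelium and epicardium, -0.11 for nerve and Schwann cells and 0.00 for skeletal muscle. No marker of these 7 lists was at an unadjusted p under 0.05. Without the arrays of high liver score the medians of these lists were -0.22, -0.05, -0.18, -0.18, -0.03, -0.23 and -0.16 in the order given, with 13 of 16 fibroblast and 8 of 8 red cell markers below 0.

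**Figure D5:**
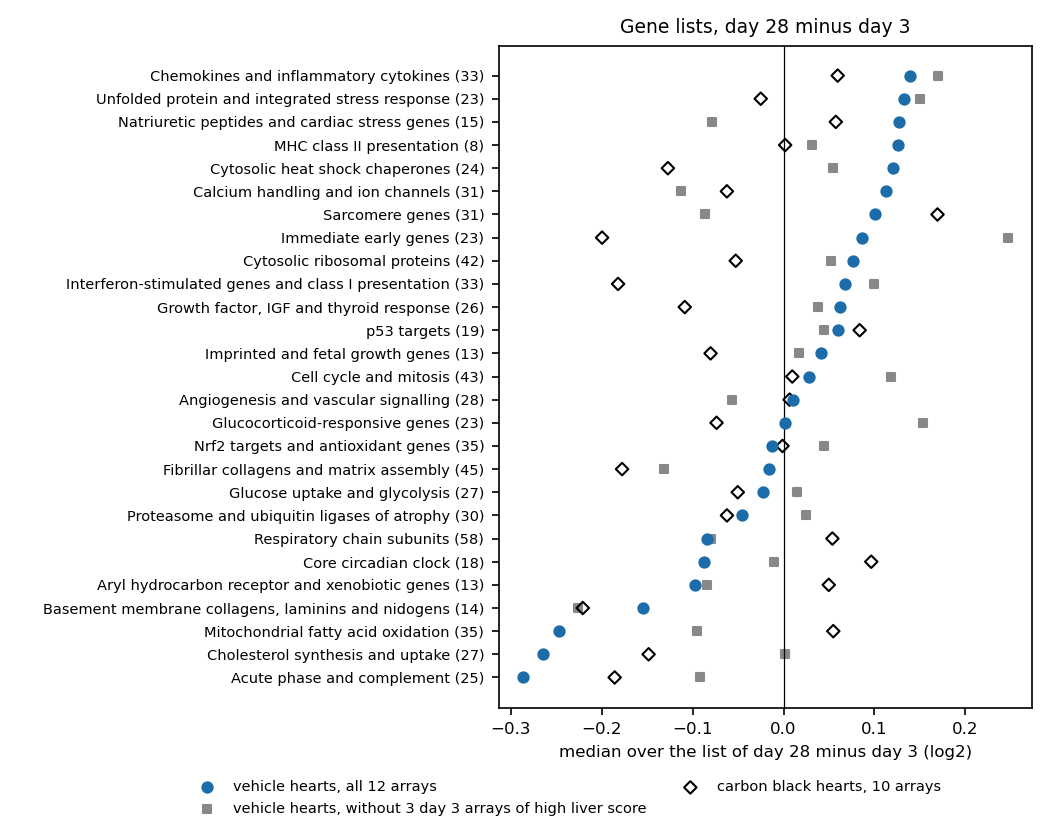
For each of the 27 pathway lists, with the number of genes measured in brackets, the x axis gives the median of day 28 minus day 3 (log2) in vehicle hearts with all 12 arrays (filled circles), without 3 day 3 arrays of high liver score (squares) and in carbon black hearts (open diamonds). The vehicle medians run from -0.29 to 0.14, and those of basement membrane genes lie at -0.15, -0.23 and -0.22 for the 3 symbols.

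Carbon black hearts over the same interval gave no call either. Between 5 carbon black day 28 and 5 carbon black day 3 hearts 0 of 19798 genes passed in limma (0%), and 272 were at an unadjusted p under 0.05 (1.37%). The 2 comparisons share no heart, although all arrays share the reference RNA. The test of the difference between them, carbon black minus vehicle, also called 0 genes (0%), with 240 at an unadjusted p under 0.05 (1.21%).

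Of the 6 named genes of smallest p in that difference, the aminotransferase Kyat3, of the kynurenine pathway, was at 0.32 ± 0.21 in carbon black and -0.55 ± 0.19 in vehicle hearts, or -0.17 there without the arrays of high liver score. The retinoic acid hydroxylase Cyp26b1 was at 0.36 ± 0.37 in carbon black and -1.07 ± 0.34 in vehicle hearts. In vehicle hearts Cyp26b1 ran from -0.01 to 0.74 (median 0.19) at day 28 and from 0.29 to 2.56 (median 1.21) at day 3, and was at -0.97 without the arrays of high liver score and -1.53 without those of high airway score. The T-box factor Tbx1 was at 0.43 ± 0.22 in carbon black and -0.43 ± 0.20 in vehicle hearts, and the monocarboxylate transporter Slc16a11 at 0.31 ± 0.31 in carbon black and -0.88 ± 0.28 in vehicle hearts. The endocytic scaffold Itsn1 was at -0.24 ± 0.12 in carbon black and 0.22 ± 0.11 in vehicle hearts. Without the arrays of high liver score the vehicle values of Tbx1, Slc16a11 and Itsn1 were -0.26, -0.40 and 0.11. Without those of high airway score they were -0.31, 0.09 and 0.06. The interferon-induced GTPase Gbp7 was at -0.64 ± 0.18 in carbon black and 0.07 ± 0.16 in vehicle hearts. All 6 had a limma adjusted p of 1.000 for the difference.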

How the data were processed

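The authors deposited 1 scanner file per array, whose spot intensity values were written by Agilent Feature Extraction 10.1.1.1, per the file headers, and a table of log2 ratios whose normalisation is not given in the sources used here. Per the labels, Cy5 held heart RNA and Cy3 the reference, with no dye swap and 1 mouse per array, so p-values measure the spread between mice. From the median signals, limma 3.58.1 (R 4.3.3) made normexp-corrected (offset 50), loess-normalised log2 ratios. Control and outlier spots were left out and spots of a probe averaged. A probe was kept if well above background in the heart channel on at least 0.5 of the arrays of 1 group, with at most 3 missing values, and the brightest probe stood for its gene. Of 19798 genes, 12347 had names, through RefSeq accessions (GRCm38.p6).

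The fit used all 34 arrays as 6 groups, with Benjamini-Hochberg adjustment over all genes and a threshold of 0.05. Differences, errors and intervals come from this fit. Members and lists were chosen with earlier results of these data known. Named genes were, as none passed, the 6 of smallest p in each direction and in the difference from carbon black, and up to 4 of smallest p per list. Replicate numbers follow accession order and pair nothing. The tests were tried on simulated data. The alternatives covered background, normalisation, filter, probe choice, slide, scan day, slide position, array weights, and arrays left out. Some named genes are not reported here.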

Additional observations from a re-analysis of the deposited data

Results flagged for a closer look

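In 172 groups of 6 arrays examined, 20 had 1 array whose gap to its neighbour was above Dixon's critical share of the group's range. Chance gives this in about 1 group in 20.

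Among genes, at day 28 replicate 6 stood apart for Dhx57 (log2 ratio 0.0051), Tbx1 (-1.13), Alb (0.66) and Ctss (1.43). Replicate 2 at day 28 stood apart for Cyp2a5 (0.24), Deaf1 (-0.55) and the clock output factor Tef (1.54), and replicate 3 for P4ha1 (-0.65). At day 3 replicate 6 stood apart for Prkd1 (0.95) and Ltf (4.24), and replicate 5 for Igfbp2 (0.053) and Dio1 (3.00).

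Among marker scores, the atrial score was low in day 28 replicate 2 (-3.38) and in day 3 replicate 4 (-3.46), and the nerve and Schwann score was low in the same hearts (-0.69 and -0.75). The mesothelial score was low in day 3 replicate 4 (-0.98), the endothelial score in day 28 replicate 5 (-0.50) and the thymus score, of 3 genes, in day 3 replicate 3 (-0.34). The T and B cell score was high in day 28 replicate 6 (2.37).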

How the results depend on the processing

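In limma 0 genes passed between day 28 and day 3, and 0 in the difference from carbon black, under all alternatives run, with a lowest adjusted p of 0.136 (without day 3 replicate 2). Leaving out 1 of the 12 vehicle arrays gave 0 calls each time, and 488 (without day 3 replicate 6) to 1633 (without day 3 replicate 3) genes at an unadjusted p under 0.05, against 877. That count was 280 with median centring, 580 with the slide as a fixed block, 302 with atrial, adipocyte and liver scores as covariates, 298 without the 3 day 3 arrays of high liver score, 1583 with no filter (33266 genes), 451 with a strict filter (12070 genes) and 433 with only the 12 arrays. Of 2051 values of named genes, 17 changed sign, and the cause was not tested. Gbp7 was -0.0517 with array weights, -0.0456 without the arrays of high liver score, -0.0390 without the 2 arrays of low atrial score and -0.0159 with the covariates, and leaving out 1 array gave -0.0121 (day 3 replicate 4) to 0.165 (day 28 replicate 5). Without the arrays of high liver score Tnni3 was -0.0926, Actc1 -0.0370, Myl3 -0.0333 and Nppa -0.0947. Without the 3 day 3 arrays of high airway score, an alternative chosen after seeing the data, Slc16a11 was 0.0861, Scgb1a1 0.0131, Myl3 -0.170, Nkx2-5 -0.293, Nppa -0.0514, Ucp1 1.20, Fdps 0.0220 and Atp5g3 -0.265. No paired analysis was possible because the replicate numbers only follow accession order, and the slide was fitted as a block in their place. The number of arrays limits the precision, and 250 genes were not well above background on any day 28 array.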
